A study of Mus musculus with 4 samples.

Results

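The miR-29 family of microRNAs (miRNAs) was followed on 4 microarrays from mice with Barrett's esophagus, through the probes of its 3 guide strands, mmu-miR-29a-3p, mmu-miR-29b-3p and mmu-miR-29c-3p (named without the species prefix from here on), which were 3 of the 1265 mouse miRNA probes on each array. The members were taken by name, and the rule used no measured value, although the family was picked for description with earlier results of these data known. The arrays covered esophagus at 28 weeks, esophagus at 46 weeks, serum at 28 weeks and serum at 46 weeks, with 1 array per group and therefore no replicates, no test and no p-value for any difference. All 4 samples came from L2-IL-1β mice kept under specific-pathogen-free conditions, and all are labelled with Barrett's esophagus, a condition in which columnar epithelium replaces the squamous lining. In this strain, as background, human interleukin-1β is driven by a viral promoter active in squamous epithelium of the upper digestive tract, so every group carries the transgene, and no mice without it were analysed here. How many mice contributed to an array is not stated in the labels.

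The miR-29 family is best known as a brake on extracellular matrix. Its members pair through a shared seed with messenger RNAs for fibrillar collagens, elastin and fibrillin and lower their output, and transforming growth factor β represses the family in fibroblasts of many organs. Loss of miR-29 accompanies fibrosis in heart, liver, lung and kidney. None of these targets was measured on the arrays.

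The mature sequences show why the members form a family and how little separates them. Capitals mark the seed, bases 2 to 8 from the 5′ end, which is AGCACCA in each. Sequences and positions are those of RefSeq on mouse build GRCm38.p6.
miR-29a-3p: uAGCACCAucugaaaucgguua
miR-29b-3p: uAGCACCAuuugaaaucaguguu
miR-29c-3p: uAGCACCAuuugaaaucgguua
Counting positions from 1 at the 5′ end of the first-named member, miR-29a-3p and miR-29c-3p differ over 22 bases by the single substitution C10U. From miR-29a-3p to miR-29b-3p there are 4 substitutions, C10U, G18A, U21G and A22U, and from miR-29b-3p to miR-29c-3p there are 3, A18G, G21U and U22A. Sequences were found for 1029 of the 1281 miRNA names on the array, and none of the others among those 1029 shared this seed. Whether the probes of miR-29a-3p and miR-29c-3p cross-hybridise was not tested, so their values may not be fully separate.

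The family is made from 4 hairpins in a pair of clusters, and miR-29b-3p comes from both clusters with the same sequence, so its probe reads their sum. The hairpins are given with the guide strand in capitals.
Mir29a, chr6:31062660-31062747, minus strand: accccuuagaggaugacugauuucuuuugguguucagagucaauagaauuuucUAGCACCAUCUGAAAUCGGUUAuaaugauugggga
Mir29b-1, chr6:31063023-31063093, minus strand: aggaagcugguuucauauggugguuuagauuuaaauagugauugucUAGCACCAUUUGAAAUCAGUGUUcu
Mir29b-2, chr1:195037040-195037120, plus strand: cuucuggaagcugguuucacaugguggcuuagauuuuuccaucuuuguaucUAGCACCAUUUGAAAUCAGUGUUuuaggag
Mir29c, chr1:195037547-195037634, plus strand: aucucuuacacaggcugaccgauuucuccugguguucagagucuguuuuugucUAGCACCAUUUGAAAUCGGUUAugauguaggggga
Mir29b-2 and Mir29c lie within the span of the long noncoding RNA gene A330023F24Rik, with 426 bases between the hairpins. Mir29a and Mir29b-1 lie 275 bases apart, and no other annotated gene spans them.

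Values are net signals, the median intensity of a spot minus the mean of the array's BLANK spots, in arbitrary linear units, with each probe spotted once per array. A miRNA was called detected when its spot exceeded the BLANK mean plus 2 SD, which held for 853 to 1000 miRNAs per array. This limit is lenient, since 39.2% to 77.3% of spots without probe also passed it, and a stricter limit from those spots lay at spot intensities of 63.1 (28 weeks) and 64.0 (46 weeks) for the esophagus arrays and 51.1 and 60.3 for the serum arrays. As a check of the labels, the list of squamous epithelial miRNAs (miR-205-5p, miR-203-3p) summed to net signals of 3067 (28 weeks) and 3453 (46 weeks) in esophagus against 54.1 and 242 in serum, while 4 erythrocyte strands summed to 198 and 128 against 37941 and 24713. Of those 4 strands 3 were detected in esophagus. The columnar and glandular list summed to 98.3 and 147 in esophagus against 179 and 160 in serum. The check therefore covers tissue against serum and not the label of Barrett's esophagus.

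All 3 guide strands were far above both limits on all 4 arrays. Net signals were read per probe across arrays and not between probes, because probes differ in how brightly they report. For miR-29a-3p the esophagus arrays read 1394 at 28 weeks and 1423.5 at 46 weeks, and the serum arrays 750.4 and 708. For miR-29b-3p it was 891 and 844 in esophagus and 222 and 138 in serum. For miR-29c-3p it was 243 and 242 in esophagus and 127 and 68.5 in serum. Each member was higher on both esophagus arrays than on either serum array, the esophagus arrays lay close together, and serum at 46 weeks was the lowest array for each.

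**Figure D1:**
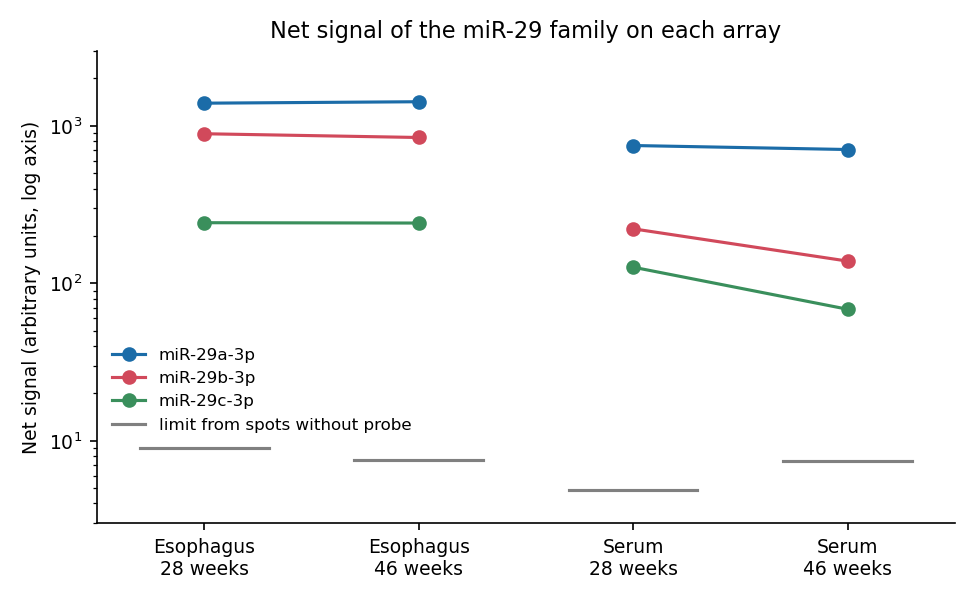
Net signal (arbitrary units, log axis) of the 3 guide strands on each of the 4 arrays, with 1 point per array, lines joining the 2 ages of a sample type, and grey bars at the limit set by spots without probe. Both esophagus points of each member lie above both serum points, and the serum lines of miR-29b-3p, from 222 to 138, and miR-29c-3p, from 127 to 68.5, slope down.

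The opposite strands of the same hairpins, which are mostly degraded, were at or near background. These were miR-29a-5p, miR-29b-1-5p, miR-29b-2-5p and miR-29c-5p. Their net signals ranged from 1.58 to 9.75 over the 4 arrays. The stricter limit was passed by miR-29c-5p in esophagus at 28 weeks, at 9.75, and by miR-29b-2-5p in serum at 28 weeks, at 7.43, and on no other array by any of the 4. Their levels therefore allowed no reading of strand balance, and no fold is given for them.

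The first comparison asks whether the family differed between 28 and 46 weeks of age in the esophagus. None of the 3 members reached a 2-fold difference, while 1.42% of the 843 miRNAs detected on both arrays were higher by 2-fold or more and 1.42% lower. At 1.5-fold the count was again 0 of 3, against 7.24% higher and 7.47% lower. After quantile normalization the log2 difference, 46 minus 28 weeks, was -0.06 for miR-29a-3p (spot-noise SD 0.09), -0.43 for miR-29b-3p (0.09) and -0.26 for miR-29c-3p (0.09). The family median was -0.26 against 0.00 for all detected miRNAs, whose 10th and 90th percentiles were -0.48 and 0.49. In this setting all members lay between those percentiles, but not in each alternative. With the normexp correction, which uses the intensity around each spot, the percentiles were -0.20 and 0.19, and miR-29a-3p at -0.52, miR-29c-3p at -0.51 and miR-29b-3p at 0.45 all lay outside them. Without background correction they were -0.12 and 0.12, with miR-29b-3p at -0.40 and miR-29c-3p at -0.21. Under the stricter detection limit miR-29b-3p lay below a 10th percentile of -0.35. With the local background subtracted miR-29c-3p, at -0.64, lay just below a 10th percentile of -0.62. The spot-noise SD combines the spread of spots without probe with that of replicate spike-in spots on an array and holds no variation between mice, extractions or hybridisations.

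The size of the esophageal differences, and for miR-29a-3p and miR-29b-3p their sign, depended on the processing. Compared as read, with no scaling between arrays, the differences were 0.03, -0.08 and -0.0070 for miR-29a-3p, miR-29b-3p and miR-29c-3p, while the median of all detected miRNAs stood at 0.24. Subtracting that median put them at -0.21, -0.32 and -0.25. The sign of miR-29b-3p turned with normexp and, at 0.48, with the local background subtracted.

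The readings around the spots moved apart from the spots themselves. The spot of miR-29b-3p in esophagus read 946 at 28 weeks and 900.2 at 46 weeks, while its surroundings read 520.2 and 55.2. The spot of miR-29a-3p read 1448 and 1479.9 and its surroundings 265 and 493. For miR-29c-3p, spotted next to miR-29a-3p in the same block, the spot read 297 and 298 and the surroundings 85.1 and 128. The median intensity around miRNA spots was 51.4 and 51.7 on these arrays, so the ring around miR-29b-3p at 28 weeks stood 10.1 times above it. Every setting that used the local background carried these readings into the differences.

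**Figure D2:**
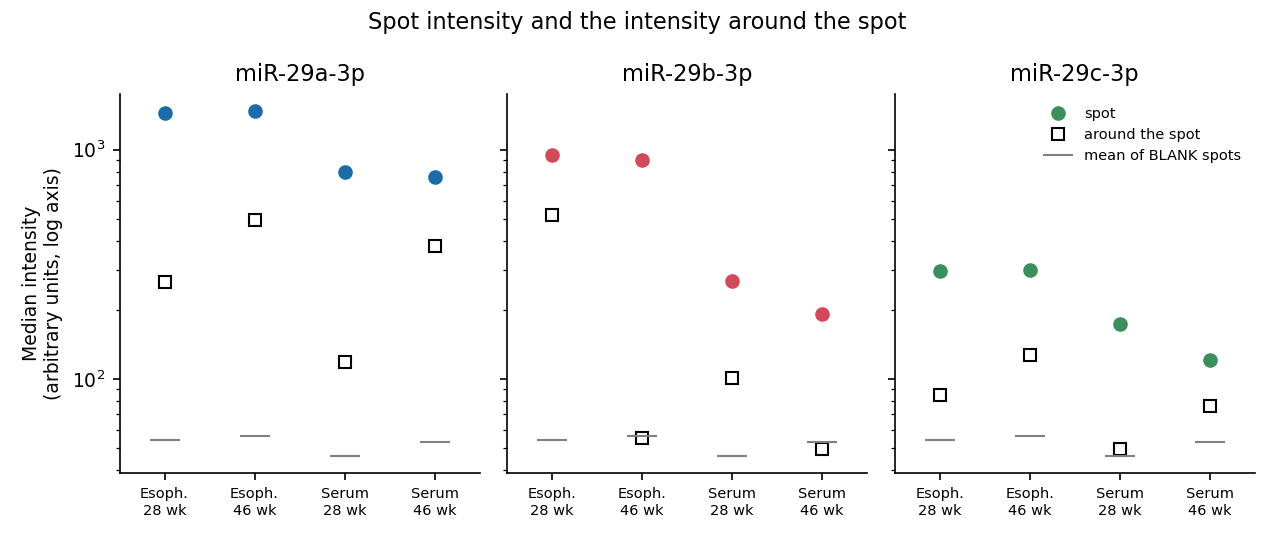
Median intensity (arbitrary units, log axis) of the spot (filled circles) and of the area around it (open squares) for each guide strand on the 4 arrays, with grey bars at the mean of the BLANK spots. Around miR-29b-3p in esophagus the surroundings go from 520.2 to 55.2 while the spot goes from 946 to 900.2, and around miR-29a-3p in serum they go from 118 to 378.

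In serum, miR-29b-3p and miR-29c-3p were lower at 46 than at 28 weeks, and miR-29a-3p was close to level. The log2 difference was -0.57 for miR-29b-3p (spot-noise SD 0.12), -0.90 for miR-29c-3p (0.12) and -0.05 for miR-29a-3p (0.11). These correspond to levels 1.48-fold and 1.86-fold lower for miR-29b-3p and miR-29c-3p. None of the 3 reached 2-fold, where 4.99% of the 822 miRNAs detected on both serum arrays were lower and 5.84% higher. At 1.5-fold miR-29c-3p alone passed, against 13.9% of detected miRNAs that were lower and 16.1% that were higher by that much. The family median was -0.57, against 0.00 for all detected miRNAs with 10th and 90th percentiles of -0.70 and 0.77, so of the members miR-29c-3p lay outside that range, and 6.08% of detected miRNAs had a lower value than it. It was below the 10th percentile under all 8 alternatives too, where miR-29a-3p joined it under normexp, at -0.56 against -0.27, and miR-29b-3p without background correction, at -0.44 against -0.26. These are not 8 separate checks. No scaling, median scaling and spike-in scaling differ by a constant, and each left 8.39% of detected miRNAs below miR-29c-3p. The authors' deposited table rescales the same net signals by 1 factor per array, and the stricter limit left miR-29c-3p at -0.90.

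The direction for miR-29b-3p and miR-29c-3p was the same under all 8 alternatives, from -1.27 to -0.18 for miR-29b-3p and from -1.48 to -0.58 for miR-29c-3p. The serum spot of miR-29c-3p read 173 at 28 weeks and 121 at 46 weeks, while its surroundings read 49.6 and 76.1. At 46 weeks the spot stood 1.59 times above its surroundings, the lowest such ratio among the spots of the members. The sign of miR-29a-3p was not stable, with 0.10 after scaling to the median, -0.56 with normexp and -0.62 with the local background subtracted, whose reading around its spot was 118 at 28 weeks and 378 at 46 weeks. The serum arrays also differed in the brightness of their spike-in spots, which did not move with that of the miRNAs. Spike-in spots averaged 9324 net units at 28 weeks and 14018 at 46 weeks, while with no scaling the median difference of all detected serum miRNAs was -0.13. Scaled to the spike-in spots the median of all serum miRNAs stood at -0.72, with 5 higher and 245 lower by 2-fold in place of 48 and 41. On that scale miR-29a-3p, miR-29b-3p and miR-29c-3p stood at -0.67, -1.27 and -1.48, which is 0.05, -0.55 and -0.76 relative to that median. In the authors' deposited table miR-29c-3p passed 2-fold, with values of 297 and 147 and a log2 difference of -1.01, while the median of all miRNAs there was -0.26.

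**Figure D3:**
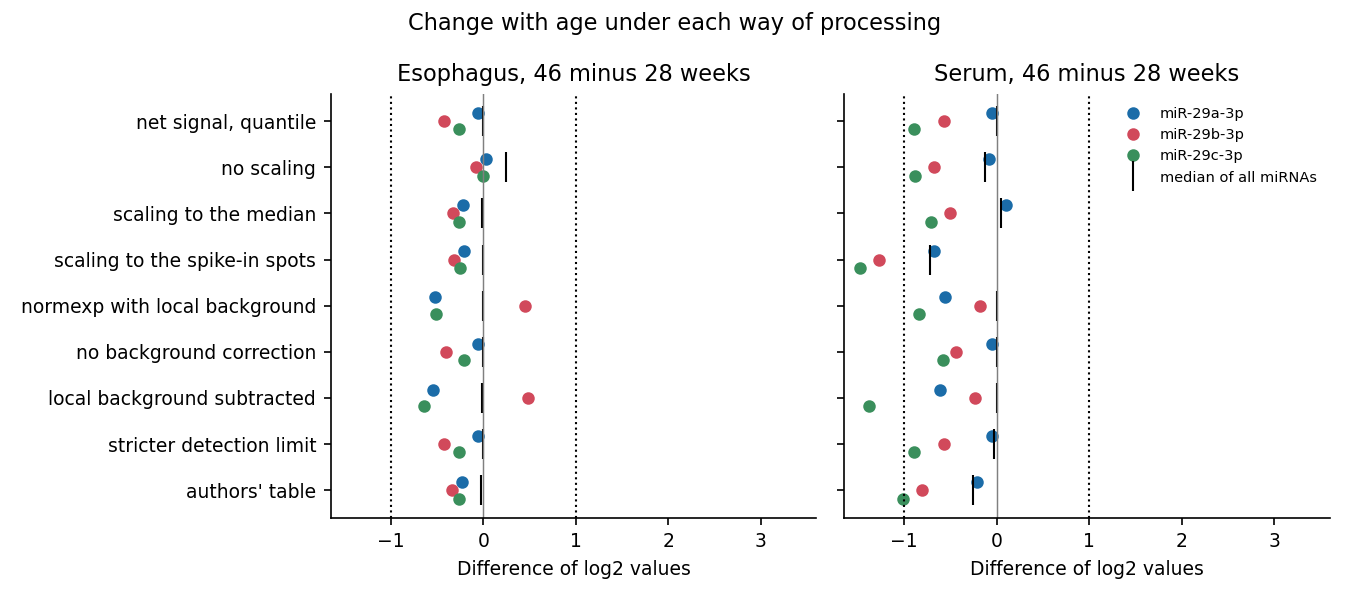
Difference of log2 values, 46 minus 28 weeks, of the 3 guide strands in esophagus (left) and serum (right) under each way of processing, with black ticks at the median of all detected miRNAs and dotted lines at 2-fold. In serum miR-29c-3p lies between -1.48 and -0.58 throughout, and in esophagus miR-29b-3p lies on either side of 0, at 0.45 with normexp and at -0.43 with net signal and quantile normalization.

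Differences between members on the same array do not depend on a factor common to the array. In serum the log2 net signal of miR-29a-3p relative to miR-29c-3p was 0.80 higher at 46 than at 28 weeks (spot-noise SD 0.17), and relative to miR-29b-3p it was 0.60 higher (0.16). The same shifts in esophagus were 0.04 (0.13) and 0.11 (0.13), within the spot noise on this scale. The esophageal shift against miR-29b-3p was not stable, with 0.37 after quantile normalization, 0.34 without background correction, -0.97 under normexp and -1.03 with the local background subtracted. That against miR-29c-3p was 0.20, 0.15, -0.02 and 0.09 in the same order. Between miR-29b-3p and miR-29c-3p the serum shift was 0.21 (0.17), and it was 0.33 after quantile normalization, 0.66 under normexp and 1.15 with the local background subtracted. In serum the divergence of miR-29a-3p from miR-29c-3p kept its sign in each alternative computed for it, with 0.28 under normexp, 0.53 without background correction, 0.77 with the local background subtracted and 0.84 after quantile normalization. That of miR-29a-3p from miR-29b-3p turned to -0.38 both under normexp and with the local background subtracted. No replicate stands behind any of these shifts.

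For miR-29c-3p the change with age in esophagus minus that in serum was 0.64 in log2 units, with a spot-noise SD of 0.15, and it lay between 0.33 and 1.23 under the 8 alternatives. For miR-29b-3p it was 0.14 (0.15), between 0.04 and 0.95, and for miR-29a-3p -0.01 (0.14), between -0.32 and 0.46. These differences have no test with 1 array per group.

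Markers of tissues that release miRNAs into blood moved in serum over the same interval. Of detected list members, 3 of 3 striated muscle miRNAs, the hepatocyte miRNA miR-122-5p and 2 of 4 erythrocyte strands were at least 2-fold lower at 46 weeks. Summed net signals at 28 and 46 weeks were 868 and 163 for the whole striated muscle list and 591 and 70.002 for miR-122-5p. The sum of all 4 erythrocyte strands, 37941 and 24713, was mostly miR-451a, at 36871 and 23648, which did not pass 2-fold. Higher by 2-fold were 2 of 2 squamous, 2 of 4 columnar and glandular and 1 of 4 leukocyte miRNAs. None of the 5 fibroblast and stromal miRNAs passed 2-fold, and their sum was 239 and 254. Nor did any of 3 smooth muscle, 5 epithelial and 2 endothelial miRNAs. Among all miRNAs detected on both serum arrays 4.99% were lower and 5.84% higher by 2-fold. At 46 weeks 3 of 4 striated and 3 of 4 smooth muscle miRNAs were detected in serum. Their part in the lower serum values of miR-29b-3p and miR-29c-3p was not tested. In esophagus 1 of 3 erythrocyte strands was lower and miR-122-5p higher by 2-fold, and no member of the other 8 cell-type lists passed, with sums of 726 and 794 for fibroblasts and stroma and 5493 and 5675 for smooth muscle. Of all miRNAs detected on both esophagus arrays 1.42% were lower and 1.42% higher by 2-fold. In such mixed samples fewer cells of a type and less miRNA per cell cannot be told apart.

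Esophagus was then compared with serum at each age, with 4-fold as the threshold. All 3 members were higher in esophagus at both ages, and miR-29b-3p was the furthest apart. Its log2 difference, esophagus minus serum, was 1.998 at 28 weeks (spot-noise SD 0.09), just short of 4-fold, and 2.24 at 46 weeks (0.11), past it. For miR-29c-3p it was 1.17 (0.09) and 1.77 (0.12), and for miR-29a-3p 0.61 (0.09) and 0.61 (0.11).

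Thus 0 of 3 members passed 4-fold at 28 weeks and 1 of 3 at 46 weeks, where 6.24% of 881 and 6.31% of 776 detected miRNAs were that much higher in esophagus and 4.54% and 6.44% that much lower. At 2-fold the count was 2 of 3 higher at each age, against 15.2% and 16.8% higher and 15.0% and 16.2% lower. The family medians were 1.17 and 1.77, against -0.10 and -0.04 for all detected miRNAs. Under the alternatives the sign stayed positive for each member at each age. The call of miR-29b-3p at 28 weeks turned on the processing, with 2.15 after scaling to the median and 1.62 scaled to the spike-in spots. At 46 weeks its call was lost under normexp, at 1.81, and without background correction, at 1.86.

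**Figure D4:**
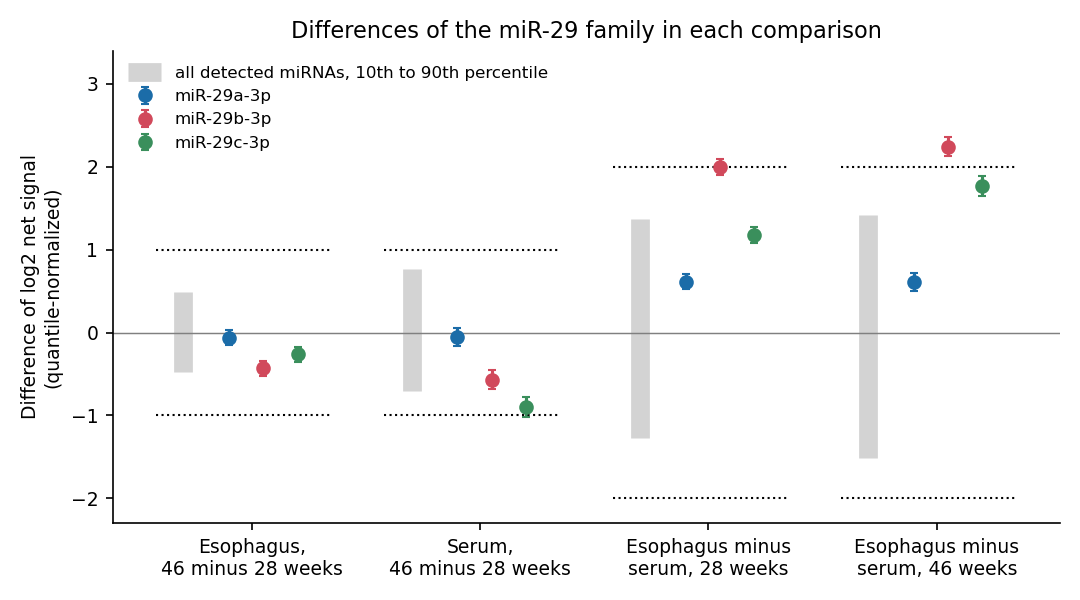
Difference of quantile-normalized log2 net signal for the 3 guide strands in each of the 4 comparisons. Bars on the points are the spot-noise SD, grey bars span the 10th to 90th percentile of all detected miRNAs, and dotted lines mark 2-fold between ages and 4-fold between sample types. The order miR-29b-3p, miR-29c-3p, miR-29a-3p holds in both comparisons of esophagus with serum, from 2.24 down to 0.61 at 46 weeks.

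The members also differed from each other in how far esophagus and serum lay apart. On the scale with no factor between arrays, the difference of miR-29a-3p minus that of miR-29b-3p was -1.11 at 28 weeks (spot-noise SD 0.13) and -1.60 at 46 weeks (0.16). Under normexp these values were -0.46 and -0.996, and with the local background subtracted -0.65 and -1.23. The difference of miR-29b-3p exceeded that of miR-29c-3p by 1.07 (0.13) and 0.79 (0.16), which became 0.34 and 0.73 under normexp and 0.31 and 0.33 with the local background subtracted. For miR-29a-3p minus miR-29c-3p the value at 28 weeks was -0.04 (0.13) with no scaling but -0.56 after quantile normalization and -0.34 both without background correction and with the local background subtracted, so whether these members differed there depended on the processing. At 46 weeks it was -0.81 (0.16) with no scaling and between -1.17 and -0.27 in the alternatives. Tissue and serum RNA were extracted with different kits, and the effects of kit and of sample type cannot be told apart.

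Among cell-type lists, 5 of 5 miR-200 family epithelial miRNAs and 2 of 2 squamous miRNAs exceeded serum by 4-fold or more in esophagus at each age. The same held for 4 of 4 and 3 of 3 striated muscle miRNAs, 3 of 4 and 2 of 3 smooth muscle miRNAs and 1 of 5 fibroblast and stromal miRNAs at 28 and 46 weeks, and for 1 of 4 leukocyte miRNAs at 28 weeks. In the other direction were 2 of 3 and 3 of 3 erythrocyte strands, miR-122-5p at 28 weeks and 1 of 4 leukocyte miRNAs at 46 weeks. No columnar, glandular or endothelial miRNA passed. Over all detected miRNAs 6.24% at 28 weeks and 6.31% at 46 weeks were higher in esophagus by 4-fold, and 4.54% and 6.44% lower.

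A list of 18 other miRNAs with a described part in fibroblast activation or collagen control gave the setting for the family. In esophagus 0 of 17 detected members passed 2-fold with age, against 1.42% of all detected miRNAs in each direction, and the median was -0.06. In serum 1 of 18 passed, miR-133a-3p, a muscle miRNA that also restrains connective tissue growth factor in heart, whose net signal was 282 at 28 weeks and 61.6 at 46 weeks. Over all detected serum miRNAs 4.99% were lower and 5.84% higher by 2-fold, so the count of the list was near that share. The median of the list in serum was 0.07, against -0.57 for the miR-29 family.

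Esophagus exceeded serum by 4-fold for 5 list members at both ages, of 18 detected at 28 weeks and 17 at 46 weeks, against 6.24% and 6.31% of all detected miRNAs. These were miR-133a-3p, the smooth muscle miRNA miR-145a-5p, the epithelial miR-200b-3p, the p53-induced miR-34a-5p and the inflammatory miR-155-5p, with log2 differences of 3.21, 4.03, 3.57, 3.14 and 2.09 at 28 weeks and 5.64, 3.24, 3.63, 3.19 and 2.02 at 46 weeks. The serum spots of miR-155-5p, miR-200b-3p and miR-34a-5p were dim, with net signals of 9.45 to 17.9. Several members of this list also stand on the muscle, epithelial and stromal lists.

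The miRNAs whose pattern over the 4 arrays was most like each member were found by the root mean square distance between log2 net signals, after quantile normalization over the 731 miRNAs detected on all arrays and centring of each miRNA on its own mean. Nearest to miR-29a-3p were miR-700-3p, miR-6405 and miR-3107-3p, at distances of 0.03, 0.05 and 0.07, and the first 2 were dim, with net signals of 17.3 to 31.8. Nearest to miR-29b-3p were miR-27b-3p, miR-5097 and miR-6351, at 0.14, 0.18 and 0.18. Nearest to miR-29c-3p were miR-148a-3p, miR-505-5p and miR-24-1-5p, at 0.10, 0.12 and 0.19. The last was dim, with net signals of 4.32 to 14.4, and in serum at 46 weeks its spot was below the stricter limit. Others were dim in serum. At 28 and 46 weeks miR-6351 read 20.8 and 11.7 there, miR-505-5p 22.4 and 11.6, and miR-148a-3p 58.4 and 25.5.

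The family members were not each other's nearest neighbours. Among the 730 other miRNAs, miR-29c-3p ranked at place 27 in likeness to miR-29b-3p, and miR-29b-3p at place 33 to miR-29c-3p, both with a distance of 0.37. The pair that shares 21 of 22 bases, miR-29a-3p and miR-29c-3p, lay 0.56 apart. In likeness to miR-29a-3p, miR-29c-3p ranked at place 410, beyond the median distance of 0.52 from it. In likeness to miR-29c-3p, miR-29a-3p ranked at place 101, within the median distance of 0.94. The distance is not scaled for how widely a miRNA varies over the arrays, and miR-29a-3p varied least of the members. These distances rest on 4 arrays and describe them.

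**Figure D5:**
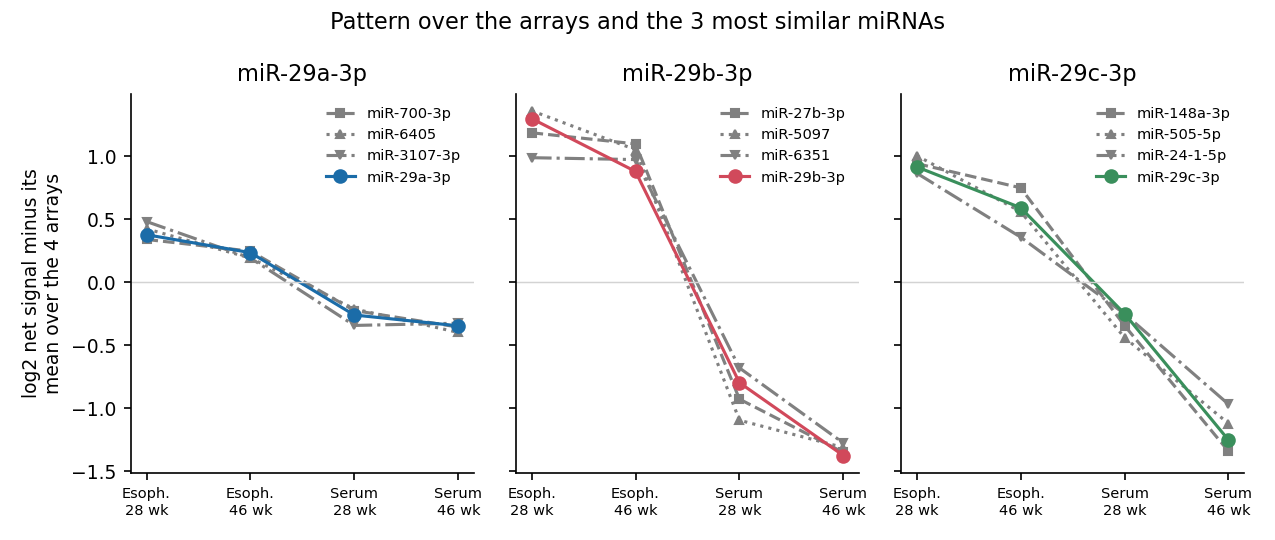
Log2 net signal minus its mean over the 4 arrays, after quantile normalization, for each guide strand (coloured) and the 3 miRNAs most like it (grey). The span from esophagus at 28 weeks to serum at 46 weeks is widest for miR-29b-3p, from 1.30 to -1.38, and narrowest for miR-29a-3p, from 0.38 to -0.35.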

How the data were processed

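Per the labels' protocols, RNA came from tissue by mirVana and from serum by miRNeasy Serum/Plasma kits and was labelled with Hy5 for Toray 3D-Gene arrays, read in 1 colour. The deposited scanner files held the median intensity of each spot and of its surroundings, uncorrected, with 3 gains joined by fitted lines per the file headers. Each column of the authors' deposited table, also intensity on a linear scale, equalled spot intensity minus a level near the BLANK mean times 1 factor per array, within 0.0515 units, with a median of 25.

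Net signals were taken to log2 and quantile-normalized over the miRNAs detected on the 2 arrays compared. Spot-noise SDs used 97 No Probe spots and 16 spike-in spots per array. The number of arrays limits the precision. Alternatives changed the scaling, the background (normexp of limma 3.58.1 in R 4.3.3, offset 50), the detection limit, the fold or the source of values. The quantile step was tested on simulated data, where scaling to the median added a common offset to every difference. The simulation left out dim miRNAs and drew higher and lower changes alike. It therefore does not cover dim miRNAs or changes that lie mostly in a single direction. Python 3.11.15, pandas 2.3.3, numpy 2.4.6 and matplotlib 3.10.9 were used.

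The members, the matrix list and 10 cell-type lists were chosen with earlier results of these data known. Named were the members, their opposite strands, array miRNAs sharing their seed, the 3 most alike per member and matrix-list members past the fold. Other miRNAs are named only where they stand for a list. Older array names were matched for 4 list members.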

Additional observations from a re-analysis of the deposited data

How the results depend on the processing

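Each comparison was recomputed under 8 alternatives and with a lower fold. The alternatives reuse the same spots, so they are not 8 separate checks. No paired analysis was possible because each group had 1 array. In esophagus with age, the family median was -0.0070 with no scaling, -0.51 with normexp and -0.55 with the local background subtracted, in place of -0.26, and no member passed 2-fold under any alternative. In serum with age it was -1.27 scaled to the spike-in spots, -0.44 without background correction and -0.81 in the authors' deposited table, in place of -0.57. The count of members lower by 2-fold, 0 in the main setting, was 2 scaled to the spike-in spots, 1 with the local background subtracted, 1 in the authors' deposited table, and 1 at a threshold of 1.5-fold. Over all miRNAs compared, 41 of 822 were lower by 2-fold in the main setting. In the same order as for the members, the alternatives gave 245 of 822, 42 of 821 and 89 of 897, and 13.9% at 1.5-fold.

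For esophagus against serum at 28 weeks the family median was 0.94 with no scaling, 0.55 scaled to the spike-in spots, 0.85 with normexp, 0.92 without background correction and 1.005 in the authors' deposited table, in place of 1.17. Members higher by 4-fold numbered 1 without scaling, after median scaling and in the authors' deposited table, in place of 0, and 2 at 2-fold. Over all miRNAs compared, 49 of 881, 56 of 881 and 54 of 968 were higher by 4-fold in the same order, and 15.2% by 2-fold. At 46 weeks the median was 1.09 with normexp and 1.15 without background correction, in place of 1.77, and the count was 0 in both, in place of 1, and 2 at 2-fold. Of all 776 detected miRNAs, 17 and 21 were higher by 4-fold in the same order, and 16.8% by 2-fold. Counts over all detected miRNAs also moved. In the main setting 12 and 12 were higher and lower in esophagus with age, 48 and 41 in serum, 55 and 40 between sample types at 28 weeks and 49 and 50 at 46 weeks. The alternatives ranged over 0 to 33 and 1 to 28, 5 to 64 and 9 to 245, 20 to 56 and 13 to 79, and 17 to 55 and 16 to 50 in the same order. The causes were not tested.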
